A study of Mus musculus with 16 samples.

Results

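The very long transcribed regions described here were taken from the nuclear RNA assembly of undifferentiated female mouse embryonic stem cells. A region is 1 row of the deposited day 0 RNA-seq list that spans at least 100000 bp and overlaps, by at least 1 bp on the same strand, a row of at least 100000 bp in the day 3 list. Of 40668 day 0 rows on chromosomes 1 to 19 and X, 1367 met this rule. Another 302 day 0 rows were long enough but had no long row on the same strand at day 3. The rule used length and overlap only, so the lengths are a description and not a result.

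The study set the RNAs bound by CTCF beside the sites that CTCF occupies on chromatin, at day 0 and after 3 days of differentiation. CLIP-seq and nuclear RNA-seq came from female cells of the strain CAST/Ei x 129/Sv/Jae, and ChIP-seq from female cells of the strain 129S1/CastEiJ x 129S1, so the CLIP and ChIP lists carry different strain labels. Day 0 cells grew attached with LIF, the cytokine that keeps these cells undifferentiated, and day 3 cells grew in suspension without LIF. The CLIP libraries used here were UV-crosslinked and precipitated with Anti-Flag M2 beads, with 2 libraries at each day. The sources used here do not name the line's FLAG-tagged construct. For CTCF ChIP-seq there were 2 libraries of undifferentiated cells and a single one at day 3; RNA-seq had 1 per day. CLIP without UV and the ChIP inputs were not analysed here. The labels do not say whether replicates came from separate cultures, so the spread between them may be technical. CLIP lists held 106382 to 213181 peaks and ChIP lists 41264 to 76745, with no read counts, so the read depth behind a peak is unknown. The files do not pair rows with gene names. Rows are therefore named by position in mm9, and markers of the stem cell state were not tested.

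CTCF holds loops of chromatin together and insulates neighbouring domains; it contacts DNA through zinc fingers and is also known to bind RNA. In CLIP-seq, UV light links a protein to the RNA it touches, and the co-purified RNA fragments are sequenced. Nuclear RNA holds unspliced transcripts, so long introns are present in it, and RNA near the start of a gene is present both in transcripts still being made and in finished ones. In mammals the longest genes consist mostly of introns, and many of them encode adhesion and synaptic proteins.

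The regions ran from 100034 to 2072788 bp, with a median of 163754 bp, and covered 304.5 Mb of the 706.7 Mb in all day 0 rows. They were split evenly between strands, with 685 on the plus strand and 682 on the minus strand, and 66 of them lay on X. Most were not single assembled transcripts: 1231 pooled several transcripts, and 1006 pooled more than 1 assembly locus. The median region held 5 transcripts. Only 136 were a single transcript. Where a region joins neighbouring genes, its ends are the ends of the joined block. On the opposite strand, 924 regions (67.6%) were overlapped by another day 0 row.

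The extents were much the same at both days. The rule favours this, since it kept only rows with an overlapping long row at day 3 and left out 302 others. The 5′ end lay within 1 kb of the day 3 row's 5′ end in 1222 regions (89.4%), the 3′ end in 1126 (82.4%), and both ends in 1018. A shift of the 3′ end by over 1 kb was toward a longer day 3 row in 110 regions and a shorter one in 131. The longest region, on chromosome 4 from 75785286 to 77858073 on the minus strand, was an exception, since the day 3 row that overlapped it was 508864 bp long.

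CLIP peaks were sparser per base in the very long regions than in shorter ones. The regions held 31123 and 58099 peaks in day 0 replicates 1 and 2, and 32398 and 45420 in day 3 replicates 1 and 2. Per 100 kb of region, this was 10.2, 19.1, 10.6 and 14.9 peaks in the same order. Day 0 rows of 10 to 100 kb that also overlap a day 3 row, 7579 in number, held 20.4, 38.7, 18.4 and 30.4 peaks per 100 kb. The density in the very long regions was thus 0.502, 0.493, 0.577 and 0.490 times that of the shorter rows, with a mean of 0.516 ± 0.0415 (SD, n = 4 libraries). It was lower in all 4 libraries. In an exact two-sided sign-flip permutation test over the libraries, 2 of 16 sign patterns were as extreme, the fewest that 4 libraries allow and too many to pass 0.05.

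Most regions nevertheless carried peaks in every library. Peaks were found in all 4 CLIP libraries in 1154 regions (84.4%), and in 4899 rows of 10 to 100 kb (64.6%), which span fewer bases. The median region held 14, 26, 15 and 21 peaks. A peak-free region was rare, with 27 of 1367 empty in every library, and 13 of these were single transcripts. The 10% of regions with most peaks, 137 in each library, held 38.4% to 40.7% of the peaks. Few individual peaks recurred between replicates: 12.5% and 6.85% of the regions' peaks in day 0 replicates 1 and 2, and 8.32% and 5.78% in day 3 replicates 1 and 2, overlapped a peak of the other replicate. In rows of 10 to 100 kb these shares were 21.6%, 11.7%, 14.8% and 8.82%. Peaks found in all 4 libraries numbered 267 in the very long regions and 1694 in the shorter rows, or 0.0877 and 0.636 per 100 kb. Of the 267, 32 lay in the first 10% of a region, 185 in the middle 80% and 50 in the last 10%, or 1.38 and 2.16 times the density of the middle at the 5′ and 3′ windows. These recurring peaks were thus more weighted to the 3′ window, unlike the peaks of each whole list described below. In the shorter rows the same ratios were 1.01 and 3.46, so a 3′ weighting of recurring peaks was found in both sets.

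The peaks lay on the strand of the transcript. In the 443 regions with no opposite-strand row, 99.4%, 99.5%, 99.6% and 99.2% of all peaks were on the region's own strand. The exact Clopper-Pearson 95% intervals, which cover counting error only, ran from 99.1% to 99.7% over the 4 libraries. All other CLIP values count peaks on the region's own strand, placed by their midpoint.

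In windows of 10% of the region, the first held more CLIP peaks per base than the middle. The first 10% of the regions held 12.1 and 25.5 peaks per 100 kb in day 0 replicates 1 and 2, and 14.5 and 20.9 in day 3 replicates 1 and 2. The middle 80% held 9.84, 18.4, 10.4 and 14.5 peaks per 100 kb. The first 10% was therefore 1.23, 1.39, 1.40 and 1.44 times as dense as the middle, with a mean of 1.36 ± 0.0919 (SD, n = 4 libraries). The ratio was above 1 in all 4 libraries (2 of 16 patterns as extreme in the same exact test). Taken as the ratio of the regions' median window densities, it was 1.13.

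The last 10% of the regions held 11.4, 17.8, 8.91 and 12.6 peaks per 100 kb, which is 1.15, 0.967, 0.859 and 0.868 times the middle. The mean ratio of 0.962 ± 0.137 (SD, n = 4 libraries) did not differ from 1 beyond the spread between libraries (exact sign-flip permutation p = 0.5), and day 0 replicate 1 lay above 1. With end windows of 5% the mean ratio was 1.12, above 1. The final 2 kb of the regions held 32.0, 46.8, 18.8 and 30.4 peaks per 100 kb, against 10.2, 19.1, 10.6 and 14.9 over whole regions. In the first 2 kb the densities were 13.1, 28.1, 14.5 and 25.6, below those of the final 2 kb in all 4 libraries. The 3′ end was thus the denser of both ends in windows of 2 kb, and the 5′ end in windows of 10% in all 4 libraries. Rows of 10 to 100 kb held 41.2, 64.4, 29.0 and 45.4 peaks per 100 kb in their final 2 kb, so a dense 3′ end was found in both sets at this scale.

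**Figure D1:**
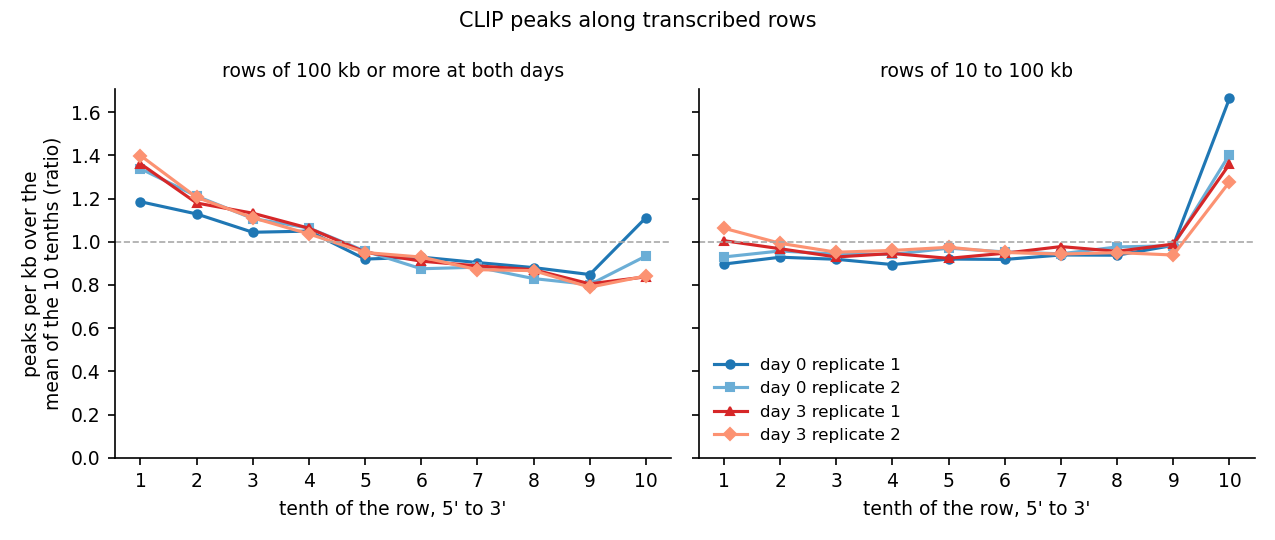
CLIP peak density in 10 equal windows of a row from the 5′ to the 3′ end, divided by the mean density of the same rows, for the very long regions (left) and day 0 rows of 10 to 100 kb (right); each line is 1 of the 4 CLIP libraries. In the very long regions the first window was at 1.19 to 1.40 times the mean and the ninth at 0.790 to 0.848, whereas in the shorter rows the last window was the densest.

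In windows of 10% the shorter rows differed from the very long regions. In rows of 10 to 100 kb the first 10% was 0.964, 0.970, 1.05 and 1.11 times as dense as the middle, and the last 10% was 1.79, 1.46, 1.42 and 1.33 times as dense. The ratio for the first 10% was higher in the very long regions in all 4 libraries, by a mean log2 difference of 0.41. The ratio for the last 10% was lower in all 4, by a mean log2 difference of -0.64. Each comparison had 2 of 16 sign patterns as extreme, the fewest possible.

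The shape differed with length inside the very long set as well. The first-to-middle ratio, as the mean over the 4 libraries, was 1.22 in the 586 regions of 100 to 150 kb, 1.31 in the 435 regions of 150 to 250 kb, and 1.57 in the 346 regions of 250 kb or more. The last-to-middle ratio was 1.20, 0.938 and 0.721 in the same classes. With rows of 10 to 30 kb and of 30 to 100 kb added below them, all 5 classes stood in order of length in each of the 4 libraries, rising for the first 10% and falling for the last 10%. Each end window is 10% of its row, so it spans more bases in a longer row. The classes were chosen with the values known, and no test was made on them.

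**Figure D2:**
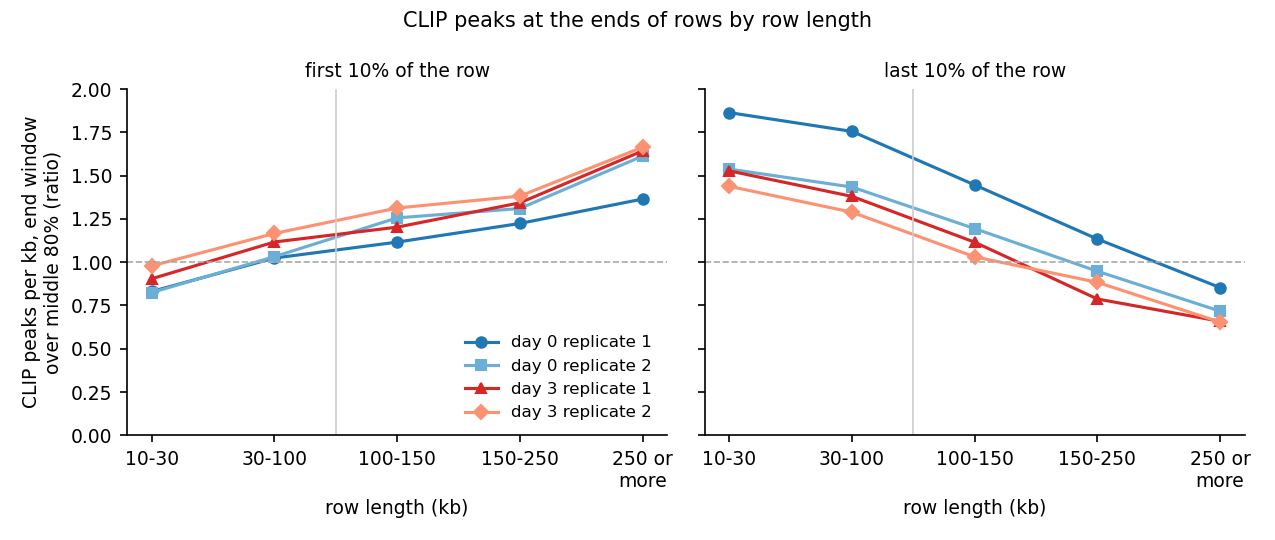
Ratio of CLIP peak density in the first 10% (left) and last 10% (right) of rows to that in their middle 80%, by row length in kb; points are the 4 CLIP libraries and a value of 1 means equal density. The mean first-to-middle ratio was 0.885 in rows of 10 to 30 kb and 1.57 in regions of 250 kb or more, and the mean last-to-middle ratio 1.59 and 0.721.

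Measured in bases and not in shares of the row, the decline from the 5′ end was gradual. In the 512 regions of 200 kb or more, the first 20 kb held 10.7, 22.8, 13.7 and 18.7 peaks per 100 kb. Between 180 and 200 kb from the 5′ end the densities were 8.48, 14.3, 8.19 and 11.0. From the 3′ end inward the order was reversed in 3 of the 4 libraries: the last 20 kb held 8.31, 12.2, 6.33 and 8.30 peaks per 100 kb, and the bin 180 to 200 kb upstream of the 3′ end held 7.87, 15.6, 9.65 and 12.6. Day 0 replicate 1 was the exception. The RNA-seq lists give 1 value per row and no coverage along it, so whether nuclear RNA declines in the same way was not tested.

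**Figure D3:**
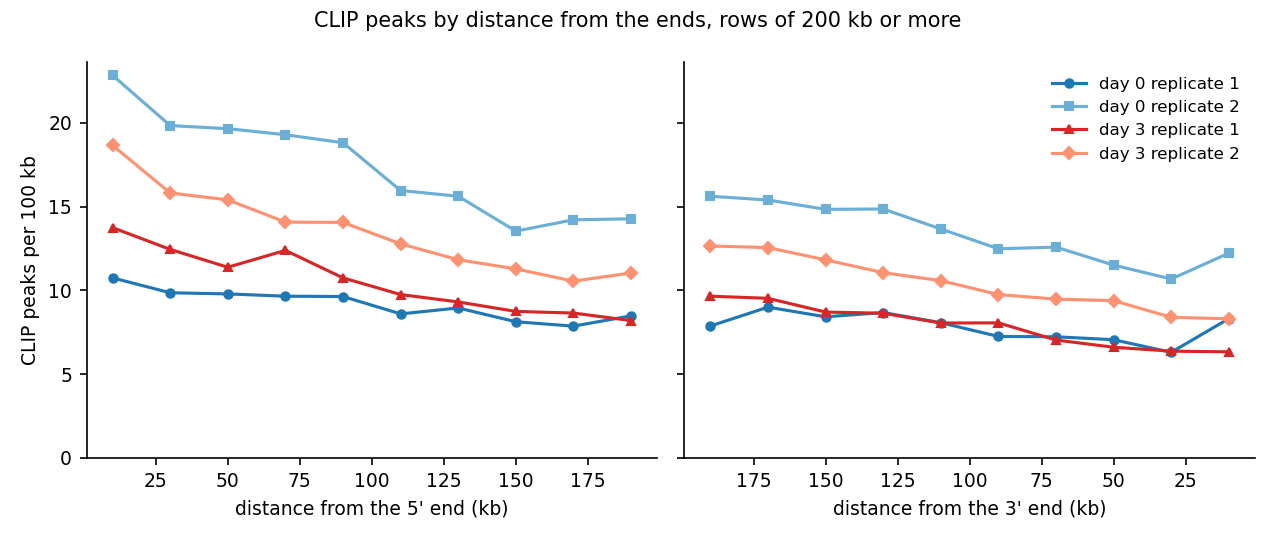
CLIP peaks per 100 kb in 20 kb bins by distance from the 5′ end (left) and the 3′ end (right, axis reversed so that the end is at the right edge) of the 512 regions of 200 kb or more; each line is 1 CLIP library. The 4 libraries lay between 10.7 and 22.8 in the first 20 kb from the 5′ end and between 8.19 and 14.3 at 180 to 200 kb.

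The number of transcripts assembled in a region went along with its peak density. The 136 regions of a single transcript held 0.906, 1.68, 1.36 and 1.10 peaks per 100 kb. The 496 regions of 2 to 4 transcripts held 4.31, 7.46, 5.09 and 6.03, and the 425 of 5 to 9 held 10.7, 19.9, 10.9 and 16.4. The 310 regions of 10 or more transcripts held 23.4, 44.6, 23.6 and 33.7. Nuclear RNA level was read in single-transcript rows only, so its part in this order was not tested. The denser 5′ end was found in each class: the first-to-middle ratio lay between 1.21 and 1.71 in single-transcript regions and between 1.12 and 1.44 in those of 10 or more transcripts. The single-transcript ratios rest on 299 to 554 peaks a library.

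Region by region, the same tendency was modest. In 710 regions with at least 10 peaks in every library, the first 10% was denser than the middle in all 4 libraries in 176 (24.8%), against 16.0% of all 1934 rows that met the same minimum. It was sparser in all 4 in 73 regions (10.3%), against 15.7%. The last 10% was denser in all 4 libraries in 85 regions (12.0%, against 21.9%) and sparser in 178 (25.1%, against 16.4%). The remaining regions did not point one way in all 4 libraries.

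No single region passed the test for either end. A limma fit of the log2 ratio of peak densities, with 0.1 peaks per kb added to each window, covered 8212 rows of at least 10 kb, 1294 of the very long regions among them. The other 73 regions had peaks in fewer than 2 libraries and were not fitted. After Benjamini-Hochberg adjustment 0 of the 1294 regions passed 0.05 at the first 10% and 0 at the last 10%, as did 0 of all rows (0% called), with smallest limma adjusted p-values of 0.139 and 0.129. At an unadjusted limma p under 0.05 the first 10% was above the middle in 109 regions (8.42%, against 4.04% of all rows) and below it in 63 (4.87%, against 15.8%). For the last 10%, 73 regions (5.64%, against 9.72%) were above and 115 (8.89%, against 10.2%) below. On data simulated with the observed spread, the position fits called the larger of the known shifts used but none of the smaller, so 0 called does not show that regions lack such a weighting. The median log2 ratio at the first 10% was 0.09 in the regions and -0.27 over all rows fitted. At the last 10% it was -0.11 in both. An end window of a shorter row spans fewer bases, and one without a peak gives a ratio below 0 wherever the middle holds peaks. Pooled over rows of 10 to 100 kb, the first 10% was 0.964 to 1.11 times as dense as the middle and the last 10% 1.33 to 1.79 times, unlike these medians. How far row length and sparse peaks set the medians and shares of all rows was not tested.

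The regions with the highest fitted first-to-middle ratios are described next; they were chosen by that ratio over the same 4 libraries, so their values support nothing. The region on chromosome 10 from 27794253 to 28317305 (plus strand) had 28, 60, 31 and 39 of its 104, 168, 74 and 125 peaks in the first 10% of its length. That is 53.5, 115, 59.3 and 74.6 peaks per 100 kb, against 17.0, 23.4, 9.08 and 18.2 in its middle. The fitted log2 ratio was 1.65 ± 0.24 (SE, n = 4 libraries), with a limma adjusted p of 0.139. Likewise, 67 pooled transcripts on chromosome 7 from 103359147 to 104059603 (plus strand) had 48, 92, 53 and 61 of 167, 313, 149 and 181 peaks there. Its fitted log2 ratio was 1.59 ± 0.20 (SE, n = 4 libraries; limma adjusted p = 0.139). The highest fitted ratio, 1.66 ± 0.49 (SE, n = 4 libraries; limma adjusted p = 0.220), belonged to the X region from 147778487 to 147906385 (plus strand). It rested mostly on day 0 replicate 2, with 22 of 44 peaks in the first 10% there and 2 of 15, 5 of 10 and 7 of 11 in the others.

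Other regions were nearly bare at their 5′ end. On chromosome 12 from 87762594 to 87863273 (plus strand) the first 10% held 0, 2, 0 and 1 of 97, 205, 26 and 89 peaks. Its fitted log2 ratio of -2.65 ± 0.24 (SE, n = 4 libraries; limma adjusted p = 0.139) was the lowest of the regions with at least 10 peaks in every library. On chromosome 12 from 80398332 to 80609643 (plus strand) the first 10% held 2, 1, 2 and 3 of 137, 316, 103 and 194 peaks. On chromosome 2 from 35477363 to 35586514 (plus strand) it held no peak in any library, out of 21, 27, 22 and 40. These regions too were chosen by their fitted ratio over the same 4 libraries. That all 4 gave few peaks at these 5′ ends follows from that choice and supports nothing.

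The regions described next at the 3′ end were among those with the highest and lowest fitted last-to-middle ratios. They were chosen by that ratio over the same 4 libraries, so their values support nothing. In the region on chromosome 7 from 89797124 to 89926362 (plus strand) the last 10% held 13, 16, 13 and 13 of 26, 32, 21 and 27 peaks, and its fitted log2 ratio to the middle was 2.49 ± 0.21 (SE, n = 4 libraries; limma adjusted p = 0.129). On chromosome 12 from 3807030 to 3914443 (plus strand) it held 9, 18, 17 and 18 of 23, 45, 61 and 50 peaks. By contrast, the region on chromosome 12 from 17697322 to 17798732 (plus strand) had no peak in its last 10% in any library, out of 15, 43, 27 and 57. On chromosome 15 from 52895593 to 53177742 (minus strand) the last 10% held 0, 5, 2 and 2 of 90, 199, 167 and 114 peaks, while the first 10% held 20, 36, 37 and 21.

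The longest regions differed widely among themselves in density. The longest of all held 2 peaks in each of the 4 libraries, over 2072788 bp. The third longest, on chromosome 12 from 41750524 to 43056575 (plus strand), pooled 89 transcripts and held 258, 487, 116 and 254 peaks, or 19.8, 37.3, 8.88 and 19.4 per 100 kb. Its last 10% was thin, with 14, 15, 4 and 8 peaks. The region on chromosome 5 from 131913205 to 133019908 (minus strand) held 92, 194, 160 and 157 peaks, of which 20, 59, 44 and 38 lay in the first 10%. That is 18.1, 53.3, 39.8 and 34.3 peaks per 100 kb at the 5′ end, against 6.66, 14.0, 11.5 and 12.5 in the middle. The second longest, on chromosome 3 from 84300015 to 85691551 (minus strand), was the reverse: 13, 17, 7 and 24 of its 14, 28, 9 and 27 peaks lay in the last 10%. Of the 10 longest regions, the row on chromosome 4 from 35653896 to 36898990 (minus strand) had no peak in any library. The rows on chromosome 8 from 16344863 to 17535586 (minus strand), X from 83992581 to 85135574 (minus strand) and chromosome 14 from 39182138 to 40287063 (minus strand) had at most 2 peaks in any one library.

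The densest regions were all of moderate length. The region on X from 148269791 to 148369960 (plus strand), only 100170 bp long, held 123, 262, 121 and 186 peaks, or about as many per 100 kb. It ranked first by the plain mean of the 4 densities, which gives more weight to the longer lists, and was the densest region in day 3 replicate 2 alone. Its first 10% was denser than its middle in day 3 replicate 1 only, at 79.9, 260, 130 and 150 against 132, 271, 126 and 196 peaks per 100 kb. The region on chromosome 1 from 183832503 to 183950111 (minus strand) held 165, 315, 125 and 179 peaks, with 24, 56, 20 and 33 in the last 10%. On chromosome 8 from 34893116 to 35040917 (minus strand) a region of 64 transcripts held 130, 226, 336 and 269 peaks, more at day 3 than at day 0 in both pairs of libraries. This region was the densest in day 3 replicate 1, at 227 peaks per 100 kb. On chromosome 14 from 22316943 to 22491556 (plus strand) the day 0 libraries gave 264 and 476 peaks, the highest densities of those libraries at 151 and 273 per 100 kb, and the day 3 libraries 92 and 210. The ranges of the days do not overlap on chromosomes 8 and 14, but these counts come from lists of unlike length. Exchanging the day labels of 2 against 2 libraries gives such a split in 2 of 6 ways. The share of all regions with such a split was not taken. The limma day test below gave adjusted p-values of 0.844 and 0.783 for these 2 regions.

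**Figure D4:**
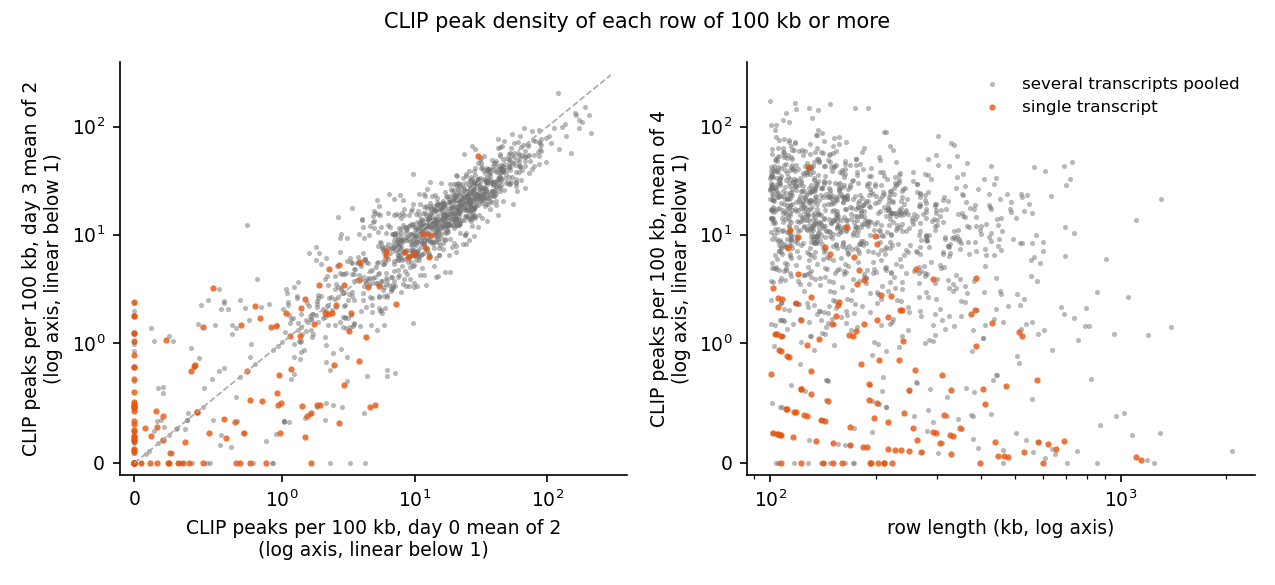
CLIP peak density of each very long region, as 1 point: day 3 (mean of 2 libraries) against day 0 (mean of 2 libraries) on the left, and the mean of all 4 libraries against region length in kb on the right, all axes log and the density axes linear below 1 peak per 100 kb. The dashed line marks equal density at both days; orange points are the 136 single-transcript regions, most of which lie below the grey points of regions that pool several transcripts.

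Between days, no region passed the test for CLIP signal. The length of own-strand peaks in each row, per Mb of all peaks listed for that library, on a log2 scale with 1 added, were fitted by limma over 12054 day 0 rows, and 0 of 1294 regions and 0 of all rows (0% called) passed an adjusted p of 0.05. The smallest limma adjusted p was 0.211. On data simulated with the observed spread this fit called none of the rows given a known shift, so 0 called does not show that regions did not change. At an unadjusted limma p under 0.05, 30 regions were higher at day 3 (2.32%, against 3.96% of all rows) and 24 lower (1.85%, against 4.56%). The median log2 difference was 0.05 in the regions and -0.02 over all rows. With a pseudocount of 0.1 in place of 1, limma called 12 of 1294 regions, 7 higher and 5 lower at day 3, and 395 of all 12054 rows. This was a smaller share of the regions than of all rows. In such bulk samples fewer cells that make an RNA and less RNA per cell cannot be told apart.

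The regions with the smallest day p-values were poor in peaks. On chromosome 15 from 34236410 to 34365997 (plus strand) both day 0 libraries had no peak and the day 3 libraries had 2 and 4 (log2 difference 4.58 ± 0.50, SE, n = 4 libraries; limma adjusted p = 0.211). On chromosome 5 from 116889281 to 117041826 (minus strand) there were 0 and 0 at day 0 and 3 and 3 at day 3. On chromosome 16 from 60424088 to 60605357 (minus strand) there were 1 and 5 at day 0 and none at day 3 (log2 difference -4.27 ± 0.50, SE, n = 4 libraries; limma adjusted p = 0.211). On chromosome 5 from 99358792 to 99466390 (minus strand) there were 3 and 4 at day 0 and none at day 3. Each difference rests on at most 7 peaks. These 4 regions were chosen by the day p-value and met the filter of at least 2 libraries with peaks through 1 day only. That the days do not overlap in them follows from this choice, so it and the fitted differences support nothing.

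No region passed a test for a change of its 5′ weighting between days. The first-to-middle ratio was 1.23 and 1.39 at day 0 and 1.40 and 1.44 at day 3 over all regions. In the limma fit of the day 3 minus day 0 difference in this log2 ratio, 0 of 1294 regions and 0 of 8212 rows (0% called) passed 0.05, and the smallest adjusted p among the regions was 0.839. At an unadjusted limma p under 0.05 there were 7 regions higher at day 3 (0.541%, against 3.21% of all rows) and 7 lower (0.541%, against 2.18%).

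CTCF ChIP peaks were also thinner in the very long regions than in shorter rows. The regions held 5368 and 10219 ChIP peaks in the 2 day 0 libraries and 4819 in the day 3 library, or 1.76, 3.36 and 1.58 per 100 kb. These were 0.592, 0.566 and 0.545 times the densities in rows of 10 to 100 kb, lower in all 3 libraries (exact sign-flip permutation p = 0.25, the smallest that 3 allow). Peaks found in all 3 ChIP libraries numbered 3149 in the regions, or 1.03 per 100 kb, against 2.01 in rows of 10 to 100 kb. At least 1 lay in 1109 regions (81.1%) and in 3580 of the shorter rows (47.2%), which span fewer bases.

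ChIP peaks were a little denser at both ends of a region. The first 10% was 1.13, 1.17 and 1.23 times as dense as the middle, and the last 10% 1.32, 1.20 and 1.42 times. Both ratios were above 1 in all 3 libraries (exact sign-flip permutation p = 0.25 for each). In rows of 10 to 100 kb the first 10% stood at 1.11, 1.18 and 1.26, close to the very long regions, and the last 10% at 1.11, 0.998 and 1.12, below them in all 3 libraries (p = 0.25, exact). A ChIP peak covered the 5′ end itself in 10.5% and 19.8% of the regions at day 0 and in 12.8% at day 3. It covered the 3′ end in 3.95%, 8.05% and 4.10%, and the midpoint of the region in 3.44%, 6.58% and 3.37%. The 5′ end was the most often covered of the 3 points in each library. This also held in rows of 10 to 100 kb, where the 5′ end was covered in 11.0%, 22.8% and 12.8%. Their 3′ end was covered in 7.36%, 14.0% and 7.56% and their midpoint in 6.07%, 12.6% and 6.08%, both more often than in the regions.

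**Figure D5:**
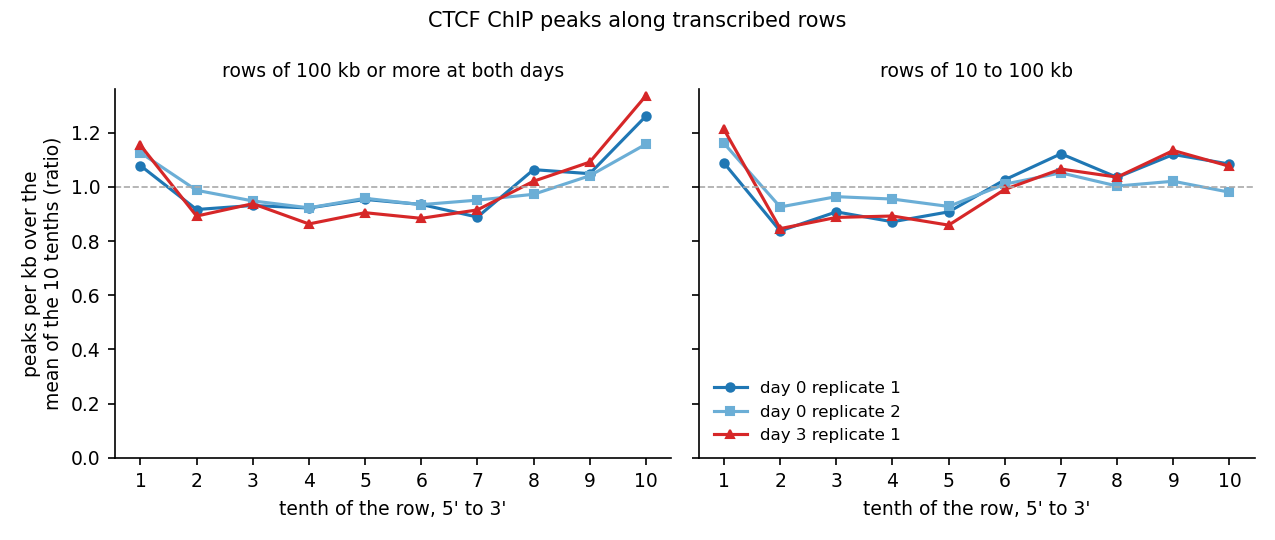
CTCF ChIP peak density in 10 equal windows of a row from the 5′ to the 3′ end, divided by the mean density of the same rows, for the very long regions (left) and rows of 10 to 100 kb (right); each line is 1 of the 3 ChIP libraries. In the very long regions the first window was at 1.08 to 1.15 times the mean and the last at 1.16 to 1.34, with windows 2 to 7 at or below 0.987.

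Some regions were rich in shared ChIP peaks. The region on chromosome 17 from 30761299 to 31012209 (plus strand) held 20 and 25 ChIP peaks at day 0 and 20 at day 3, and 18 of them were found in all 3 libraries, the most in any region. Its CLIP peaks were 21, 30, 4 and 25. On chromosome 2 from 168459938 to 168567462 (minus strand) a region held 8 shared ChIP peaks, or 7.44 per 100 kb, and 11, 5, 7 and 7 CLIP peaks. The single-transcript region on chromosome 1 from 59573108 to 59691352 (plus strand) held 7 shared ChIP peaks and 0, 1, 0 and 1 CLIP peaks. The X region densest in CLIP peaks, given above, held 1 and 14 ChIP peaks at day 0 and none at day 3. In day 0 replicate 2 the 8 regions densest in CLIP peaks held 11 to 32 ChIP peaks, against an upper quartile of 10 over all regions. In day 0 replicate 1 they held 1 to 7 and at day 3 they held 0 to 6, with a median of 3 over all regions in each. So many shared ChIP peaks occurred with few CLIP peaks in the chromosome 1 region, while the reverse depended on the ChIP library. The chromosome 2 region held 10.2, 4.65, 6.51 and 6.51 CLIP peaks per 100 kb, between the quartiles of all regions. Another region rich in shared ChIP peaks, on chromosome 4 from 137418152 to 137521248 (plus strand), held 4.85, 15.5, 14.5 and 16.5. The medians of all regions were 8.08, 14.8, 8.23 and 12.0.

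Few CLIP peaks in the regions lay over a ChIP peak. The day 0 lists were set against peaks of ChIP replicate 2 that overlap one of replicate 1, and the day 3 lists against the single ChIP list of that day. The shares were 3.79% and 3.69% at day 0 and 3.55% and 3.66% at day 3, while these ChIP peaks covered 2.93% of the regions' bases at day 0 and 3.01% at day 3. CLIP density under ChIP peaks was 1.29, 1.25, 1.17 and 1.19 times that outside them. In rows of 10 to 100 kb the same ratio was 0.901, 0.904, 0.875 and 0.889. The very long regions thus lay above 1 and the shorter rows below 1 in all 4 libraries. Regions vary in both densities, and these pooled ratios do not separate differences between regions from those within them.

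The 66 regions on X held more CLIP peaks and fewer ChIP peaks per base than those on autosomes. CLIP densities on X were 12.6, 23.9, 11.4 and 16.0 per 100 kb, which is 1.25 and 1.27 times the autosomal regions at day 0 and 1.08 and 1.08 times at day 3. The day 0 and day 3 ratios did not overlap, but exchanging the day labels of 2 against 2 libraries gives an exact permutation p of 0.333, the smallest it can. ChIP densities on X were 0.705, 0.746 and 0.600 times the autosomal ones. Among the longest regions of X, the one from 126284208 to 127000370 (plus strand) held 202, 374, 151 and 205 CLIP peaks, with 37, 61, 22 and 40 in the first 10%. The single-transcript regions from 163909241 to 164561262 (minus strand) and from 117403868 to 118024228 (plus strand) held 1, 2, 0 and 0 and 2, 1, 1 and 0.

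Nuclear RNA levels could be read only for the 80 regions that were a single transcript at both days. Their median level was 0.455 FPKM at day 0 and 0.390 FPKM at day 3. The log2(FPKM + 1) difference, day 3 minus day 0, had a median of -0.03 and was at least 1 in 7 regions (8.75%, against 16.2% of all such rows) and at most -1 in 2 (2.50%, against 5.37%). Over all 11443 single-transcript rows of 300 bp or more that overlap at both days, the median difference was 0.27. With 1 library per day there is no replicate check and no test, and adding 1 to such low values shrinks their fold changes.

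RNA level and CLIP peaks did not always move the same way in these regions; the examples were chosen after their values were seen. On chromosome 10 from 12933201 to 13194558 (minus strand) the level was 5.10 FPKM at day 0 and 1.64 FPKM at day 3, with 12 and 26 CLIP peaks in the first pair of libraries but 7 and 5 at day 3. On chromosome 14 from 30853135 to 31166672 (minus strand) it was 0.27 and 2.62 FPKM, with no CLIP peak at day 0 but 4 and 1 at day 3. In these 2 regions both measures were lower, or both higher, at day 3. On X from 110412036 to 110933625 (plus strand) the level was 0.15 and 1.63 FPKM, while CLIP peaks were 7 and 12 at day 0 and 1 and 4 at day 3. On chromosome 16 from 60424088 to 60605357 (minus strand) it was 0.80 and 3.69 FPKM, while peaks were 1 and 5 at day 0 and none at day 3. That region was among those chosen above by the day p-value, so its CLIP counts support nothing here either.

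The 4 shortest regions and the 4 longest rows below the threshold varied widely in their CLIP peaks. Just inside, the row on chromosome 5 from 108561933 to 108661966 (plus strand), of 100034 bp, held 23, 45, 14 and 23 peaks, and that on chromosome 2 from 22795593 to 22895761 (minus strand) held 19, 36, 15 and 33. The X region of 100170 bp given above held 123, 262, 121 and 186, and the row on chromosome 11 from 65501745 to 65601944 (minus strand) held 28, 53, 14 and 38. Just outside, the row on chromosome 11 from 19824048 to 19924029 (plus strand), of 99982 bp, held 37, 75, 57 and 74 peaks, and that on chromosome 11 from 86397367 to 86497338 (minus strand) held 14, 20, 6 and 13. The single transcript on chromosome 19 from 47812051 to 47911872 (minus strand) held 4, 0, 0 and 6, and the row on X from 160707303 to 160807044 (plus strand) held 13, 23, 9 and 12. In every library 3 of the 4 rows below the threshold held fewer peaks than each of the 4 above it. The 302 long rows without a long day 3 row held 2.77, 4.74, 2.44 and 3.52 CLIP peaks per 100 kb. Their first 10% was also denser than the middle, by 1.44, 1.42, 1.64 and 1.61 times.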

How the data were processed

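Nuclear RNA-seq, CTCF CLIP-seq and CTCF ChIP-seq lists in mm9 were used from 9 of 16 samples. The submitters' processing notes name TopHat2 2.0.8, Cufflinks 2.1.1, Novoalign 3.00.03, cutadapt 1.0, Trim Galore 0.3.3, SAMtools 0.1.18 and bedtools 2.17.0; no source used here names a peak caller. The deposited RNA-seq lists give rows of one or more Cufflinks transcripts with levels read as FPKM, the unit inferred from the notes and values. Rows that pool transcripts carry 1 value for all of them and were not read for level; 0 of the row identifiers matched a gene name. The deposited CLIP and ChIP lists give 1 score per peak, whose lowest CLIP value differs between libraries (212 to 409); it served only to keep the upper part of each list as an alternative. List lengths differ between libraries, so densities are compared within a library.

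Peaks were placed by midpoint, CLIP by strand, into the first 10%, middle 80% and last 10% of each row from its 5′ end. limma 3.58.1 (R 4.3.3) was fitted over all day 0 rows with peaks in at least 2 libraries (at least 10 kb for position), Benjamini-Hochberg threshold 0.05. On simulated data the fits for the day and for both ends returned the sizes of known shifts, but at the threshold the day fit called none of them and the fits of the ends only the larger. ChIP and RNA-seq, with 1 library at day 3, were not tested between days. Tables used Python 3.11.15, pandas 2.3.3 and SciPy 1.17.1.

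Named regions were the 10 longest, the 8 densest in CLIP peaks, the 5 highest and 5 lowest at the first 10% and 3 and 3 at the last 10% (at least 10 peaks in every library), the 4 smallest day p-values in each direction, the 5 richest in ChIP peaks of all 3 libraries per 100 kb (at least 5 such peaks), the 5 longest on X and the 4 rows on each side of 100 kb. Members and lists were chosen with earlier results of these data known. Alternatives were another pseudocount, filter, window size, peak minimum, overlap and length, each library left out, and a fit with replicate block.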

Additional observations from a re-analysis of the deposited data

How the results depend on the processing

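Of 90 alternative settings, 70 were scored as leaving a result the same. That score allowed some change of size, such as 820 against 1109 regions with a shared ChIP peak. The day test called 1 of 1367 regions with no filter, and 25 of all 40668 rows. With a pseudocount of 0.1 it called 12 of 1294 regions and 395 of all 12054 rows, a smaller share of the regions than of all rows. The other 7 settings of that test, and the 10 settings tried on each position test, called 0 regions. That says little of stability, since the day fit called none of the simulated shifts and the fits of the ends only the larger. The mean first-to-middle CLIP ratio was 1.13 from median window densities, 1.48 in single-transcript regions and 1.49 from 200000 bp, and 1.34 to 1.41 with 1 library left out. The last-to-middle ratio was 0.751 from medians, 0.740 from 200000 bp, 1.12 with end windows of 5%, and 0.898 to 0.996 with 1 library left out. Density against shorter rows was 0.381 times from 200000 bp and 0.495 to 0.524 times without 1 library. Shared peaks fell to 7.43% (day 0 replicate 1) and 4.74% (day 3 replicate 1) where 0.5 of the peak had to overlap, and to 9.69% and 5.84% among upper-scoring peaks. The upper-scoring ChIP peaks gave 1.01 per 100 kb, against a mean of 2.23, and 820 regions with a shared peak, against 1109, and lay under 2.28% of CLIP peaks at day 0 and 1.71% at day 3. Leaving out a day 0 ChIP library gave 1.67 to 2.47 peaks per 100 kb and 1112 to 1194 regions with a shared peak. The median FPKM difference was -0.10 with 0.1 added and 0.0086 in rows with a mean of at least 1 FPKM. A minimum of 50000 bp gave 3016 regions and one of 200000 bp gave 474. Leaving out a library in the pooled CLIP ratios and the settings for the day change of position were added after seeing the data. The cause of these differences was not tested.

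Same-numbered CLIP replicates of the 2 days did not deviate together (correlation 0.0310 over 12054 rows and 0.0494 over 1294 regions), so the numbers were not used as pairs. With a replicate block limma called 0 regions in each of the 4 fits, with smallest adjusted p-values of 0.471 for the day, 0.271 and 0.288 for the first and last 10%, and 0.846 for the day change of position. The lists hold peaks and no read counts, so a region with few peaks in a shorter list may lack depth and not binding.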
